A study of Mus musculus with 14 samples.

Results

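Macrophages were followed in newborn mouse paws through 10 marker genes: Adgre1, Lyz2, Ms4a7, Csf1r, Cd68, Mrc1, Cd163, C1qa, C1qb and C1qc. They were taken by name, as commonly used markers of the lineage, from the 56691 genes of the count table, and all 10 passed the filter on low counts. The study sequenced ribosomal RNA-depleted total RNA of whole paws from 14 mice. Paws were taken on postnatal day 0 (P0) or day 3 (P3) from wild-type (WT) mice and from mice labelled Krt9-/-, a genotype without a working gene for keratin 9, the keratin typical of palms and soles. The groups were P0 WT (n = 4), P0 Krt9-/- (n = 2), P3 WT (n = 5) and P3 Krt9-/- (n = 3). The WT mice of P0 were 2 males and 2 females by label, those of P3 3 males and 2 females, the P0 Krt9-/- mice 1 male and 1 female, and the P3 Krt9-/- mice 1 male and 2 females. The labels give a litter number for each mouse, while the sources used here name no strain, kind of Krt9 allele or treatment. Krt9-/- paws are called null below.

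Macrophages are phagocytes that seed tissues before birth from yolk sac and fetal liver progenitors and are later joined by cells derived from blood monocytes. Their survival and growth depend on the receptor CSF1R and its ligands CSF1 and IL-34, and in skin, tendon, bone and connective tissue they clear dying cells and debris. Resident connective tissue macrophages are known for the mannose receptor, the haemoglobin scavenger CD163 and C1q. C1q is the recognition unit of the classical complement pathway, and macrophages are a main source of it. A whole paw is a mixture of skin, muscle, tendon, cartilage, bone and blood, so fewer macrophages and less of a transcript per macrophage cannot be told apart.

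Promoter sequences were looked up for the members because most of them rose together between the days, and transcription factors of the lineage, PU.1 above all, act at such sites. The RefSeq table used here (build GRCm38.p6) held windows for 7 of the 10 members, with 8 windows in all, Ms4a7 having a second start. Adgre1 and C1qa had no entry, and Csf1r is named only. The 250 bases before the start are shown for the member with the largest change (Lyz2, chr10:117282273-117282522, minus strand), for the member with the most matches (Mrc1, chr2:14229164-14229413, plus strand) and for neighbouring C1q genes (C1qb, chr4:136886201-136886450, and C1qc, chr4:136892915-136893164, both minus strand). Each runs 5′ to 3′ in the direction of the gene, and capitals mark the PU.1 core letters GAGGAA on either strand, which read TTCCTC on the other.
Lyz2: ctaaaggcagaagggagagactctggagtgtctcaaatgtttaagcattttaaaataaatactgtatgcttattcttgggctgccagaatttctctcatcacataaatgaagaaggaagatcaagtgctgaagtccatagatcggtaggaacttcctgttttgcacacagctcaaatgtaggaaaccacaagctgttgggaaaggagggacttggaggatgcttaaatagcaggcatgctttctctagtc
Mrc1: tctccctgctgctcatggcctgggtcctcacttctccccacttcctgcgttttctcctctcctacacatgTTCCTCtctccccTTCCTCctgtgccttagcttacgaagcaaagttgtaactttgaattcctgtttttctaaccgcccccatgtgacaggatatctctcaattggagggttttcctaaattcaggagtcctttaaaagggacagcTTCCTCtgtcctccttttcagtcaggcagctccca
C1qb: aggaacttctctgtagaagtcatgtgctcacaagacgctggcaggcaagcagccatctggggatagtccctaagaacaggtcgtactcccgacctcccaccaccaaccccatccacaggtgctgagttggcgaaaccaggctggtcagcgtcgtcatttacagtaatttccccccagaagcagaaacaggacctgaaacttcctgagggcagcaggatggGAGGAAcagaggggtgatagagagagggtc
C1qc: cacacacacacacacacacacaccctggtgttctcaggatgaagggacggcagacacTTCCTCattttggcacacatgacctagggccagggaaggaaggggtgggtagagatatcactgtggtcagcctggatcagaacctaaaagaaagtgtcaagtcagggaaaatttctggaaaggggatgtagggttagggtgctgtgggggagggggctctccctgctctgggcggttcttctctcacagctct
The Mrc1 window held 3 matches, and C1qb, C1qc and Cd68 held 1 each. None was present in the windows of Lyz2, Cd163 or Ms4a7. Of all 32851 windows of this length in the table, 23.3% held the motif. The MAF half-site TGCTGAC was in none of the members' windows and in 3.81% of all windows, and the C/EBP core TTGCNNAA was in the Cd68 window alone and in 9.56% of all windows. Both strands were searched, and a match describes letters in a window, not a site in use.

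The 3 C1q genes lie side by side on the minus strand of chromosome 4 in the GRCm38 annotation, C1qb at chr4:136880129-136886187, C1qc at chr4:136889804-136893065 and C1qa at chr4:136895917-136898803. The other 7 members are on 7 other chromosomes.

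Total counts ran from 28947715 to 41004173 per library, and the members had between 147 (Ms4a7) and 8423 (Lyz2) counts in a library, so counting error weighs most on Ms4a7. Values are CPM, read counts scaled to library size by TMM, and folds are fitted by edgeR across all 14 libraries with labelled sex as a covariate. Calls were made where the Benjamini-Hochberg adjusted p over 21619 genes was below 0.05. The table's columns form 2 alphabetical runs of sample names, A (8 libraries) and B (6 libraries), each with all 4 groups. The labels call neither a batch, but 23.2% of genes passed the edgeR test for the run. Col1a1, a bone and connective tissue collagen, read 19530 to 37490 CPM in run A and 6908 to 18210 CPM in run B. The library P0 WT 4, labelled female, had 0.181 CPM of the female-specific Xist and 0.155 CPM of the Y-linked Ddx3y, and matched neither sex, while the other 13 matched their labels. Krt9 itself read 32.9 to 83.0 CPM in P3 WT and 7.74 to 25.2 CPM in P3 null paws, but overlapped on P0, at 2.09 to 7.61 CPM in WT and 5.32 to 6.09 CPM in null paws.

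Between P0 and P3 in WT paws, 8 of the 10 markers rose and none fell. Lyz2 rose 4.09-fold, Adgre1 2.31-fold and Ms4a7 2.01-fold, while Csf1r, Mrc1, Cd163, C1qa and C1qc rose between 1.34-fold and 1.65-fold. Cd68 and C1qb did not pass the test. Over all genes, 8.49% were called higher and 8.07% lower in this comparison. The members' median log2 fold change was 0.61, beside -0.01 over all genes tested. In 6 of the 10 members every P3 WT library lay above every P0 WT library, as did 8.96% of all genes.

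**Figure D1:**
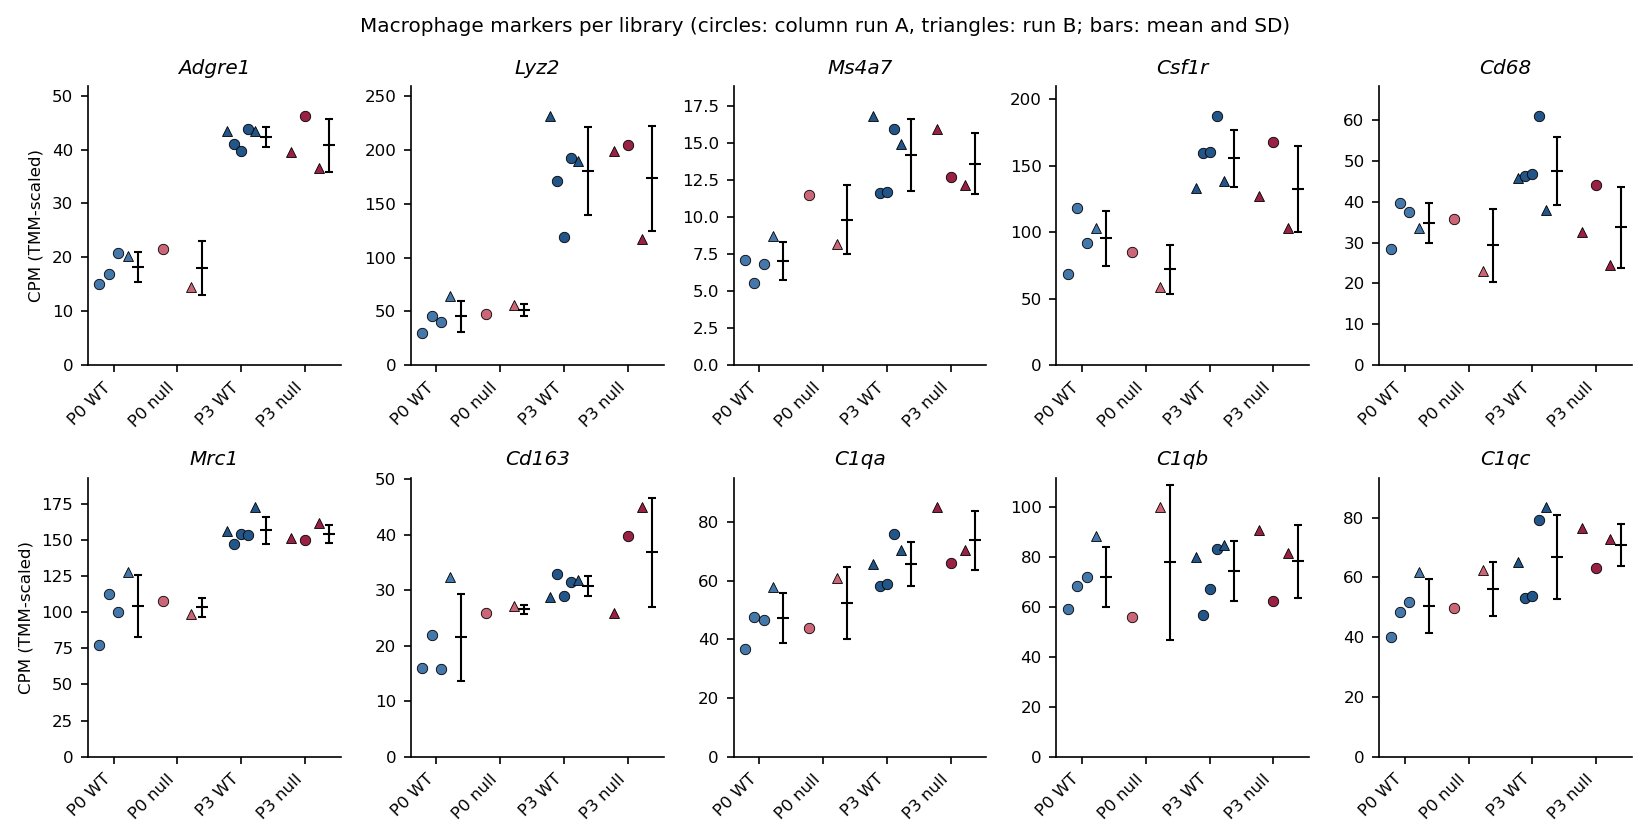
Level of each marker in each library, in CPM after TMM scaling, with a linear axis from 0 for each gene. Points are libraries (circles for column run A, triangles for run B), and bars give the mean and SD of each group. Adgre1 and Lyz2 show a gap between P0 and P3, whereas the C1qb values of the days overlap.

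Adgre1 encodes the adhesion receptor F4/80, the classical surface antigen of mouse macrophages. It read 15.0, 16.9, 20.8 and 20.2 CPM in the 4 P0 WT paws and 43.4, 40.96, 39.6, 43.8 and 43.5 CPM in the 5 P3 WT paws. The days did not overlap, and the P3 values lay within a narrow band, 42.3 ± 1.86 CPM (SD, n = 5). The rise was 1.21 ± 0.14 on the log2 scale (SE), with an edgeR adjusted p of 0.000395.

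Lyz2 encodes lysozyme M, a bactericidal enzyme of macrophage and neutrophil granules. The P0 WT paws held 30.2, 46.0, 40.5 and 64.7 CPM and the P3 WT paws 231.7, 171.0, 119.1, 192.4 and 189.6 CPM. Its lowest P3 paw stood well above its highest P0 paw, and its log2 change of 2.03 ± 0.24 (SE, edgeR adjusted p = 0.000468) was the largest among the members. Because neutrophils also carry lysozyme, their markers were read beside it. Of 11 neutrophil genes, 5 rose and none fell, with a median log2 fold change of 2.27, and their summed level went from 55.5 to 167 CPM in P0 WT to between 172 and 394 CPM in P3 WT paws. S100a8, a calcium-binding alarmin, rose by 1.54 ± 0.40 (edgeR adjusted p = 0.0238) and Mmp8, neutrophil collagenase, by 1.29 ± 0.36 (edgeR adjusted p = 0.0278). Ly6g, the defining neutrophil antigen, rose as well, by 2.89 ± 0.85 (edgeR adjusted p = 0.0327), from a low level, with no library above 1.46 CPM and no count in 2 libraries. The part of neutrophils in the Lyz2 signal was not tested. Lyz2 has a close paralog, Lyz1, and the sources used here do not say how reads that match both were counted.

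Ms4a7, a tetraspan membrane protein of mature macrophages, gave the lowest level of the members per length. Its P0 WT values were 7.1, 5.5, 6.9 and 8.7 CPM, and its P3 WT values were 16.9, 11.6, 11.7, 15.9 and 14.9 CPM. Again the days did not overlap, and the log2 change was 1.00 ± 0.18 (SE, edgeR adjusted p = 0.00314).

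Csf1r, the tyrosine kinase receptor on which the lineage depends, read 68.9, 118.2, 91.7 and 103.4 CPM in P0 WT and 133.3, 159.4, 160.2, 187.5 and 138.8 CPM in P3 WT paws. Its groups were separate and its log2 change was 0.73 ± 0.18 (SE, edgeR adjusted p = 0.0153). Cd68, a glycoprotein of late endosomes and lysosomes, read 28.4, 39.6, 37.6 and 33.6 CPM in P0 WT and 45.7, 46.3, 46.8, 61.0 and 38.1 CPM in P3 WT paws. One P3 library fell below the highest P0 library, and the log2 change of 0.45 ± 0.19 (SE) did not pass the test (edgeR adjusted p = 0.118). With the column run as a term in the fit, the Cd68 value was 0.51 and passed (edgeR adjusted p = 0.0169). That fit called 5570 genes by day in WT paws, beside 3581 in the main fit.

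Osteoclasts, the bone-resorbing cells of the same lineage, also express Csf1r and Cd68. Of 11 osteoclast genes none rose and 1, the calcitonin receptor gene Calcr, fell in WT paws, with a median log2 fold change of 0.31. Their summed level was 1320 to 2318 CPM in P0 WT and 1451 to 2445 CPM in P3 WT paws, so the days overlapped. The share of the Csf1r and Cd68 signal from osteoclasts was not tested.

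Both scavenger receptors rose. Mrc1, the mannose receptor CD206, read 77.1, 112.4, 99.97 and 127.7 CPM in P0 WT and 156.1, 147.1, 153.9, 153.8 and 172.7 CPM in P3 WT paws, a log2 change of 0.61 ± 0.12 (SE, edgeR adjusted p = 0.00451) with no overlap. Mrc1 is also made by lymphatic and sinusoidal endothelium, and of 12 endothelial genes Stab2, a hyaluronan scavenger of sinusoidal endothelium, rose by 2.60 ± 0.49 (edgeR adjusted p = 0.00414) while Pecam1, the pan-endothelial adhesion molecule, fell by 0.46. The endothelial sum was 798 to 920 CPM in P0 WT and 603 to 803 CPM in P3 WT paws, and its part in the Mrc1 signal was not tested. Cd163, which takes up haemoglobin bound to haptoglobin, read 15.99, 21.9, 15.7 and 32.4 CPM in P0 WT and 28.8, 32.9, 28.9, 31.5 and 31.8 CPM in P3 WT paws. The 5 P3 values lay close together, but 1 P0 library, P0 WT 4, was among them, so the groups overlapped although the edgeR test passed (log2 change 0.60 ± 0.16 SE, adjusted p = 0.0233).

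The C1q chains, which assemble into 1 hexameric complex, did not rise alike. C1qa went from 36.8, 47.5, 46.8 and 57.9 CPM in P0 WT to 65.7, 58.1, 59.0, 75.8 and 70.5 CPM in P3 WT paws, without overlap and with a log2 change of 0.50 ± 0.13 (SE, edgeR adjusted p = 0.0223). C1qc went from 40.0, 48.5, 51.7 and 61.8 to 65.2, 53.1, 53.8, 79.1 and 83.4 CPM, with overlap and a log2 change of 0.42 ± 0.14 (SE) just inside the threshold (edgeR adjusted p = 0.0497). C1qb read 59.1, 68.2, 71.7 and 88.2 CPM on P0 and 79.8, 56.5, 67.2, 83.2 and 84.6 CPM on P3. Its ranges overlapped over most of their width, and its log2 change of 0.07 had a 95% interval from -0.29 to 0.43 (edgeR adjusted p = 0.824).

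The difference between the chains was seen inside each library, where scaling cancels. The log2 ratio of C1qa to C1qb CPM was -0.68, -0.52, -0.62 and -0.61 in the P0 WT paws and -0.28, 0.04, -0.19, -0.13 and -0.26 in the P3 WT paws. The P0 null paws gave -0.35 and -0.71, and the P3 null paws gave -0.09, 0.09 and -0.21. Every P3 library therefore had a higher ratio than every P0 library, in both column runs. The ratio of C1qc to C1qb also moved up in WT paws, from between -0.56 and -0.47 on P0 to between -0.32 and -0.02 on P3, but 1 P0 null library, at -0.17, lay within the P3 range. These ratios were picked after the values were seen and carry no test.

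Other ratios moved as well. C1q summed over its 3 genes stood at a log2 ratio of 3.03 to 3.36 to Adgre1 in P0 WT and 2.03 to 2.45 in P3 WT paws, and Mrc1 to Adgre1 went from between 2.26 and 2.73 to between 1.81 and 1.99. Neither pair of ranges overlapped, and both ratios were lower on P3. In the other direction, Lyz2 to Adgre1 went from between 0.96 and 1.68 to between 1.59 and 2.42, with overlap. Adgre1 to Ptprc, the leukocyte antigen CD45, went from between -0.06 and 0.50 to between 0.29 and 0.70, also with overlap. The markers thus gained unequally, Adgre1 and Lyz2 most.

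**Figure D2:**
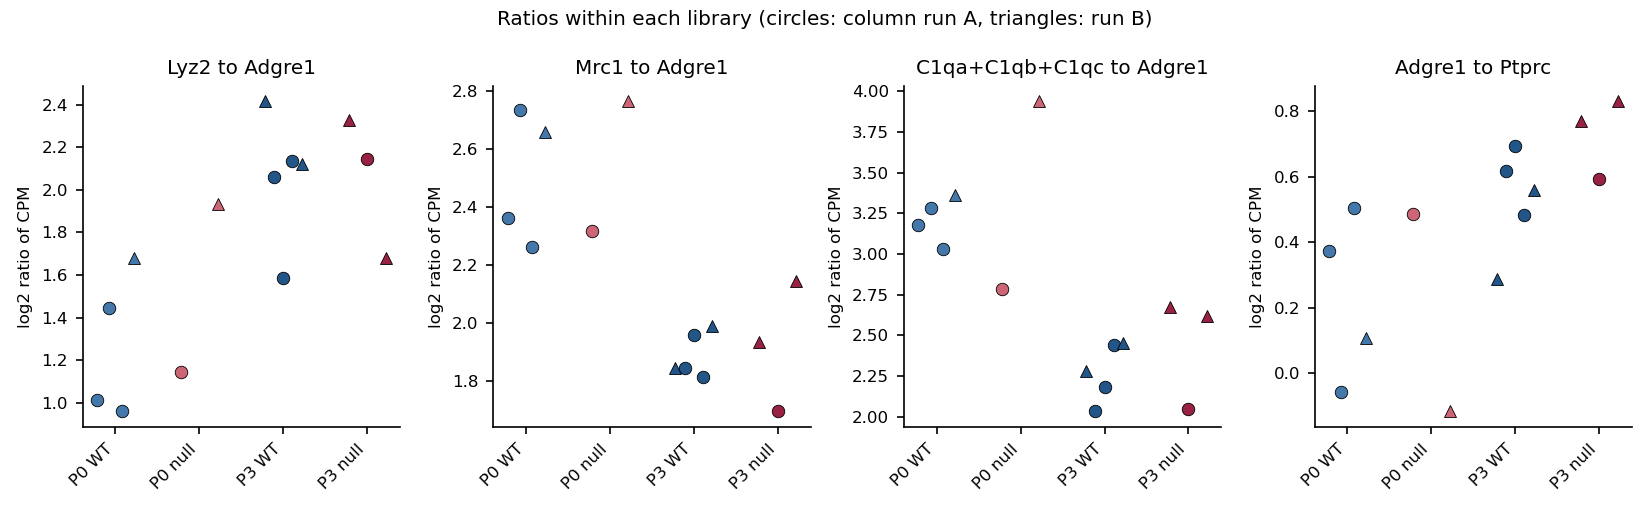
Log2 ratio of CPM between markers within each library, for Lyz2, Mrc1 and summed C1q over Adgre1 and for Adgre1 over Ptprc. Points are libraries (circles for column run A, triangles for run B), and the scale differs between panels. Mrc1 to Adgre1 and C1q to Adgre1 are lower in all P3 WT than in all P0 WT libraries, and the 2 P0 null libraries differ widely in C1q to Adgre1, at 2.79 and 3.94.

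Levels of different genes were compared per kilobase of exon. In P0 WT paws the order by mean CPM per kb was C1qb (66.0 ± 11.2 SD, n = 4), C1qa (45.4 ± 8.30), Lyz2 (34.5 ± 10.99), Cd68 (27.7 ± 3.92), C1qc (26.1 ± 4.66), Csf1r (16.5 ± 3.61), Mrc1 (16.4 ± 3.35), Adgre1 (5.63 ± 0.854), Cd163 (3.94 ± 1.43) and Ms4a7 (1.58 ± 0.294). Neighbours in this order differed by less than the larger of their SDs for C1qa and Lyz2, Lyz2 and Cd68, Cd68 and C1qc, and Csf1r and Mrc1. In P3 WT paws Lyz2 stood first at 137 ± 31.1 CPM per kb (SD, n = 5), ahead of C1qb at 68.3 ± 11.1 and C1qa at 63.3 ± 7.25, which differed by less than their SDs. Cd68 (37.9 ± 6.61) and C1qc (34.7 ± 7.28), and Csf1r (27.0 ± 3.71) and Mrc1 (24.6 ± 1.49), again differed by less than the larger SD, with Adgre1 at 13.1 ± 0.574, Cd163 at 5.64 ± 0.340 and Ms4a7 at 3.19 ± 0.544.

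The day comparison in null paws rested on 2 P0 and 3 P3 mice. Adgre1 and Lyz2 rose there, and the other 8 members did not pass the test. Over all genes, 0.338% were called higher and 0.43% lower. The median log2 fold change of the members was 0.48, beside -0.01 over all genes, and 7 members had no overlap between the days, as did 11.8% of all genes. Adgre1 read 21.6 and 14.6 CPM on P0 and 39.6, 46.2 and 36.6 CPM on P3, a log2 change of 1.18 ± 0.20 (SE, edgeR adjusted p = 0.0208). Lyz2 read 47.8 and 55.6 CPM on P0 and 198.9, 204.6 and 117.1 CPM on P3, a log2 change of 1.73 ± 0.33 (SE, edgeR adjusted p = 0.0325). Both were separate between the days in null as in WT paws. Neither was called when P0 null 2 or P3 null 1 was left out, or when the fit held only the null libraries. Csf1r, with 85.0 and 59.1 CPM on P0 and 127.1, 167.6 and 103.1 CPM on P3, had a log2 change of 0.85 (edgeR adjusted p = 0.124). Mrc1, with 107.8 and 98.9 CPM on P0 and 151.5, 149.8 and 161.6 CPM on P3, had a log2 change of 0.55 (edgeR adjusted p = 0.127). These last genes were separate between the days too, without passing the edgeR test, while DESeq2 called both (adjusted p = 0.0301 and 0.0349). Over all genes, DESeq2 called 1094 in this comparison and edgeR 166. C1qb read 55.8 and 99.6 CPM on P0 and 90.8, 62.0 and 81.4 CPM on P3, with overlap. Its log2 change of 0.01 had a 95% interval from -0.48 to 0.50, and was -0.29 without P0 null 1 and 0.40 without P0 null 2.

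Whether the change with day differed by genotype was tested as an interaction. No member passed, and of all genes 0% did, although 1644 genes had an unadjusted p under 0.05 in edgeR. The members' median difference, null minus WT, was -0.08 on the log2 scale. Ms4a7 had the largest, -0.52 ± 0.30 (SE, edgeR adjusted p = 0.719), with a 95% interval that reached up to 0.12. Its calls in WT and not in null paws therefore do not show a difference between the genotypes. DESeq2 called no member in the interaction either, while over all genes it called 85.

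**Figure D3:**
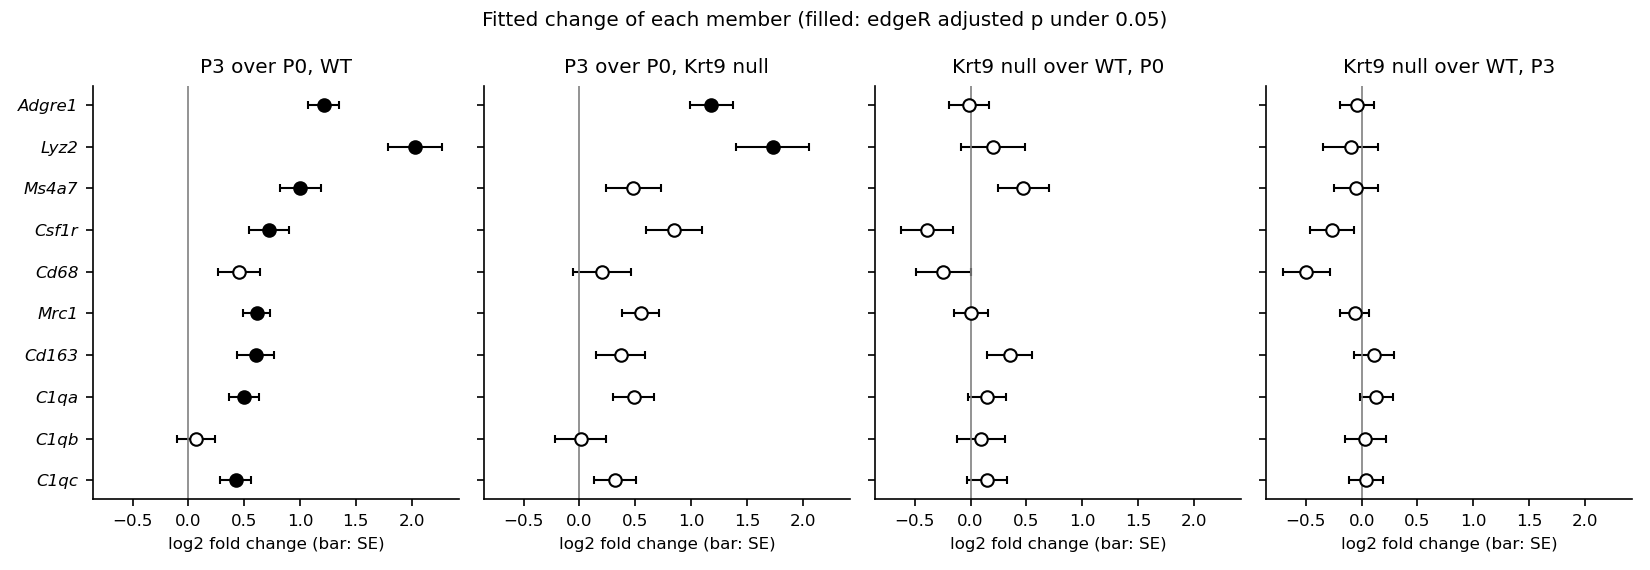
Fitted log2 fold change of each marker with its SE, for P3 over P0 in WT and in Krt9 null paws and for null over WT on P0 and on P3. Filled points have an edgeR adjusted p under 0.05. The 8 filled points in WT and the 2 in null paws are all above 0, and none is filled in the genotype panels.

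Null and WT paws were compared on each day. No member passed the test on P0 or on P3, and all 10 overlapped between the genotypes on both days. The share of all genes that overlapped between the genotypes was not computed, so this overlap is a description only. Of all genes, 0.00463% (1 gene) were called on P0 and 0.00463% on P3, while 1289 and 1442 genes had an unadjusted p under 0.05 in edgeR. DESeq2 called no member on either day, while over all genes it called 9 on P0 and 26 on P3. The members' median log2 difference, null minus WT, was 0.12 on P0 and -0.05 on P3, beside -0.0039 and -0.01 over all genes. WT libraries serve in both the day and the genotype comparisons, so these are not independent of each other.

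On P3 the 95% interval of the genotype difference lay between -1 and 1 on the log2 scale for all 10 members. Mrc1 differed by -0.06, with an interval from -0.34 to 0.21. Adgre1 differed by -0.04 (interval -0.37 to 0.28) and C1qc by 0.04 (interval -0.28 to 0.36). Differences inside these intervals are compatible with the data, and the smallest detectable difference was not computed. The intervals are not adjusted for the number of genes, and that of Cd68, from -0.95 to -0.04, left out 0. Lyz2 varied more between mice, with 198.9, 204.6 and 117.1 CPM in P3 null paws inside the WT range of 119.1 to 231.7 CPM but for the lowest, and its interval ran from -0.63 to 0.43.

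Of the members, Cd68 and Csf1r had the most negative null minus WT differences on P3, and neither passed the test. Cd68 read 32.6, 44.2 and 24.5 CPM in P3 null paws against 38.1 to 61.0 CPM in P3 WT paws, a log2 difference of -0.49 ± 0.21 (SE, unadjusted p = 0.0337, edgeR adjusted p = 0.732). Csf1r read 127.1, 167.6 and 103.1 CPM against 133.3 to 187.5 CPM, a difference of -0.26 ± 0.20 (SE, edgeR adjusted p = 0.902). In both genes 2 of the 3 null libraries were below the lowest WT library and 1 was inside the WT range. That library, P3 null 2, was the one of the 3 in column run A, and the run term was itself called for Cd68 (-0.38, run B minus run A, edgeR adjusted p = 0.0311). Within run A the Cd68 difference of means was -0.20 and within run B it was -0.55.

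No osteoclast gene was called by genotype on either day. All 11 were lower in null than in WT paws by fitted value on P3, with a median of -0.75, and on P0, with a median of -0.55. Their sum was 1042, 1887 and 735 CPM in the P3 null paws against 1451 to 2445 CPM in P3 WT paws. It was lowest in P3 null 3, which also had the lowest Cd68 and Csf1r of the P3 libraries. In run B the P3 null sums were 1042 and 735 CPM and the P3 WT sums 2183 and 1451 CPM. In run A, P3 null 2 had 1887 CPM and the P3 WT paws 2054 to 2445 CPM. On P0 the sum was 1336 CPM (run A) and 850 CPM (run B) in null against 1320 to 2318 CPM in WT paws. The keratinocyte score, the mean log2(CPM + 1) of 10 genes, was 10.19, 9.25 and 10.02 in the P3 null paws and 9.11 to 9.65 in P3 WT paws. In run B it was 10.19 and 10.02 in P3 null and 9.65 and 9.53 in P3 WT paws. In run A it was 9.25 in P3 null 2 and 9.11 to 9.35 in P3 WT paws. The part of the column run in the osteoclast sum and the keratinocyte score was not tested. With the keratinocyte score as a covariate, the P3 difference was -0.31 for Cd68 and -0.07 for Csf1r, beside -0.49 and -0.26 in the main fit. On P0 it was -0.44 for Cd68 and -0.58 for Csf1r, beside -0.24 and -0.39. The part of osteoclasts and keratinocytes in the Cd68 and Csf1r values was not tested. Cd163, by contrast, read 25.9, 39.7 and 44.9 CPM in P3 null against 28.8 to 32.9 CPM in P3 WT paws, a difference of 0.11 (edgeR adjusted p = 0.969).

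On P0 Ms4a7 read 11.5 and 8.2 CPM in the null and 5.5 to 8.7 CPM in the WT paws, with the smallest p of the members (log2 difference 0.47 ± 0.23 SE, unadjusted p = 0.0559 and adjusted p = 0.831 from edgeR). The 2 P0 null libraries stood on opposite sides of the WT range for C1qb, at 55.8 and 99.6 CPM against 59.1 to 88.2 CPM. One of them is in run A and the other in run B, and C1qb was called for the run (0.40 higher in B, edgeR adjusted p = 0.00627), the other member called. Those 2 of 10 members compare with 23.2% of all genes. The median member difference on P0 was 0.13 within run A and -0.23 within run B, each from 1 null library.

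The day changes in WT paws were also read within the runs. Run A (3 P0 and 3 P3 WT libraries) gave a median of 0.72 with all 10 members above 0, and run B (1 P0 and 2 P3 WT libraries) gave 0.33 with 8 above 0. Cd163 (-0.10) and C1qb (-0.10) were below 0 in run B, whose single P0 WT library is P0 WT 4. In null paws the medians were 0.53 in run A and 0.50 in run B. Without P0 WT 1, which had the lowest mean level of the members, Csf1r, C1qa, Cd163 and C1qc lost their calls in WT paws (edgeR adjusted p = 0.0633, 0.0843, 0.0856 and 0.145), and Adgre1, Lyz2, Ms4a7 and Mrc1 kept theirs.

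Other genes of the macrophage programme were read from lists chosen by function. The counts of each list in WT paws stand beside 8.49% of all genes called higher and 8.07% called lower. Among 14 measured CSF1R ligands and lineage factors, 3 rose and 1 fell in WT paws, with a median of 0.05. Maf, a transcription factor of resident macrophages, rose by 0.50 ± 0.11 (SE, edgeR adjusted p = 0.00917), and Nr1h3, the oxysterol receptor LXR alpha, rose by 0.99 ± 0.25 (edgeR adjusted p = 0.0158). Csf2rb, the shared receptor chain for GM-CSF and IL-3, fell by 0.71 (edgeR adjusted p = 0.0392). The ligand genes themselves were not called: Csf1 had a log2 change of -0.41 (edgeR adjusted p = 0.114) and Il34, a ligand made by keratinocytes, 0.44 (edgeR adjusted p = 0.153).

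Of 17 genes of resident tissue macrophages, 6 rose and none fell, with a median of 0.79. Cbr2, a carbonyl reductase of dermal macrophages, rose by 1.05 ± 0.21 (edgeR adjusted p = 0.00479), F13a1, the A chain of coagulation factor XIII, by 0.79 ± 0.18 (edgeR adjusted p = 0.00972), and Cx3cr1, the fractalkine receptor, by 1.66 ± 0.37 (edgeR adjusted p = 0.0102). Cx3cr1 averaged 5.69 CPM in P0 WT and 17.8 CPM in P3 WT paws. Of 12 monocyte genes, 2 rose and 1 fell. They were Ccr2, the receptor that brings monocytes out of bone marrow (1.64 ± 0.42, edgeR adjusted p = 0.0186), Cd177, which is better known as a neutrophil antigen (2.19 ± 0.69, edgeR adjusted p = 0.0477), and the immediate early gene Nr4a1 (-1.43 ± 0.41, edgeR adjusted p = 0.0363).

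Among 9 measured genes of alternative activation, 5 rose and 1 fell, with a median of 0.78. The C-type lectins Mgl2 and Clec10a, close paralogs found on dermal macrophages and dendritic cells, rose by 2.55 ± 0.33 (edgeR adjusted p = 0.000612) and 1.81 ± 0.25 (edgeR adjusted p = 0.000739). Il4ra, the receptor chain that conveys the IL-4 signal, fell by 1.04 (edgeR adjusted p = 0.000892). Of 16 genes of inflammatory activation, Tlr2 rose while Il10, an anti-inflammatory cytokine, and Cxcl1, a neutrophil chemokine, fell, and the median was -0.31.

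Of 14 measured complement genes that act with C1q, 4 rose and none fell, with a median of 0.29. They include Calr, a chaperone that also binds C1q (0.91 ± 0.14, edgeR adjusted p = 0.00125), and Cfp, the gene for properdin, which stabilises the alternative pathway convertase (0.46 ± 0.12, edgeR adjusted p = 0.0184). Of 17 genes of phagocytosis and Fc receptors, 4 rose and none fell, led by the inhibitory receptor Fcgr2b (0.81 ± 0.13, edgeR adjusted p = 0.00184) and followed by the activating receptor Fcgr4 and the adaptor Tyrobp. Of 16 phagolysosome genes, 4 rose and none fell, among them the protease gene Ctsc and the NADPH oxidase genes Ncf1 and Cybb. Many of these genes are shared with neutrophils and other leukocytes.

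**Figure D4:**
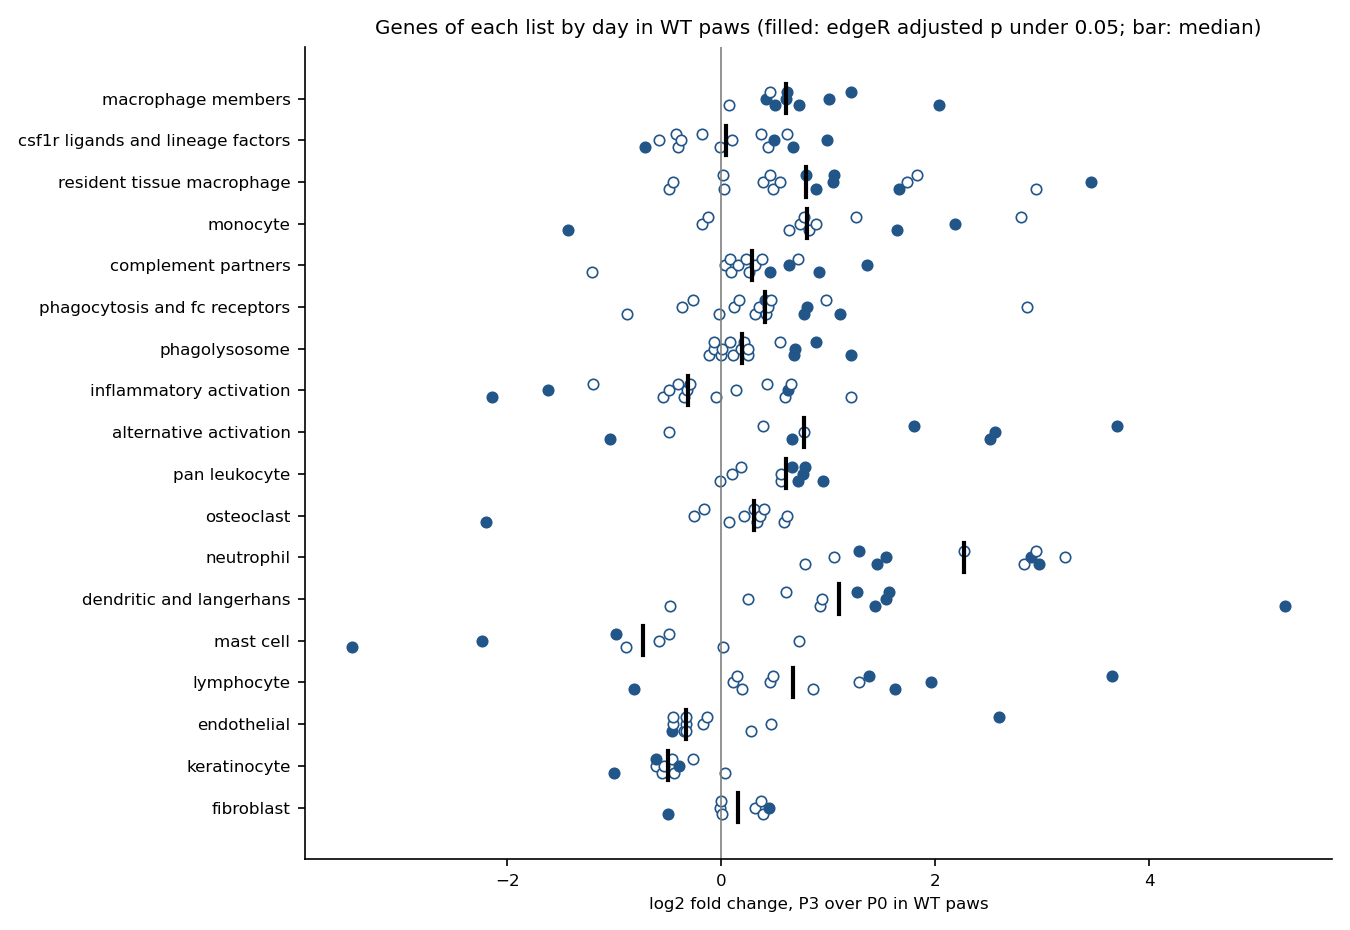
Log2 fold change from P0 to P3 in WT paws for the markers and for each gene list, 1 point per gene, filled where the edgeR adjusted p was under 0.05, with a bar at each list's median. The markers' median is 0.61, that of the neutrophil list 2.27 and that of the mast cell list -0.73.

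Genes of leukocytes in general and of other immune cells were read over the same days. Of 10 genes shared by leukocytes, macrophages included, 5 rose and none fell, with a median of 0.61, the same as that of the markers, and Ptprc rose by 0.95 ± 0.16 (edgeR adjusted p = 0.00204). Of 10 measured genes of dendritic and Langerhans cells, 5 rose, among them the antigen-presentation genes H2-Aa and Cd74 and the Langerhans lectin gene Cd207. Of 12 lymphocyte genes, 4 rose and 1 fell, led by the B cell gene Ms4a1. Of 8 mast cell genes none rose and 3 fell, Hdc, the histamine-forming enzyme, by 3.45 (edgeR adjusted p = 0.000332). Among the non-immune lists, none of 10 keratinocyte genes rose and 3 fell, and of 8 fibroblast genes 1 rose and 1 fell. The keratinocyte score was 9.11 to 10.1 in P0 WT and 9.11 to 9.65 in P3 WT paws. Whether these genes' cell types contribute to the marker values was not tested.

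In null paws 6 of these list genes were called by day, where 0.338% of all genes were called higher and 0.43% lower. Ctsc rose by 1.10 ± 0.20 (edgeR adjusted p = 0.0257), and Msr1, the class A scavenger receptor of macrophages, fell by 0.87 (edgeR adjusted p = 0.0459). The mast cell genes Hdc and Tpsab1 fell by 2.93 and 2.36 (edgeR adjusted p = 0.0133 and 0.0208), and the endothelial genes Pecam1 and Emcn by 1.03 and 0.83 (edgeR adjusted p = 0.0257 and 0.0373). Mgl2, with a log2 change of 1.81, had an edgeR adjusted p of 0.0705. The resident macrophage list had a median of 0.61 and the alternative activation list 0.85 in null paws, with no gene called. By genotype, on either day, and in the interaction no gene of any list was called, and the resident macrophage list had a median of 0.03 on P0 and -0.05 on P3.

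Genes whose levels followed the markers were sought among 14081 genes with a mean of at least 1 CPM. The measure was Pearson's r of log2(CPM + 1) with the mean of the 10 members over the 14 libraries, which share the step between the days. Among the 10 genes with the highest r were Rgs10, a regulator of G protein signalling (r = 0.9746), P2ry13, Arhgap9, Clec4a3, Mgl2, Mdm1, Cisd1, Ptpn18 and P2ry6, the last of these at 0.954. Several, such as P2ry13, P2ry6, Clec4a3 and Mgl2, are known from myeloid cells. After each group's mean was subtracted, Cd48, a leukocyte adhesion molecule (0.894), Serpind1, Lrmp and Khdrbs3 were among the 10 highest. Rgs10 was in both sets of 10, and with a minimum of 5 CPM 7 and 6 of the 10 genes were shared with the sets at 1 CPM.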

How the data were processed

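Whole-paw RNA was sequenced by the authors in 14 libraries, and the deposited table holds raw read counts per gene. The tools listed in the submitters' processing notes are STAR 2.7.10a, featureCounts, edgeR and limma, and the build is GRCm39, with no roles given. Annotation, strand setting and multi-mapping rule: not given in the sources used here. Of 56691 gene IDs, 52073 matched a symbol in GENCODE vM21 (GRCm38), used for names, exon lengths and the positions given; 4618 unmatched IDs, with 0.623% of all counts, were fitted too.

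After filterByExpr (21619 genes kept) and TMM scaling, edgeR 4.0.16 (quasi-likelihood test, R 4.3.3) was run with 4 groups and labelled sex in 1 fit of all libraries (9 residual degrees of freedom). Benjamini-Hochberg adjustment ran over all genes tested. Intervals are 95% t intervals from the fitted SE. The labels list separate mice without saying how each was sampled, so p-values measure the spread between these samples. No pair of replicates agreed within sampling noise. Alternatives were DESeq2 1.42.0, limma 3.58.1 with litter as a block, other filters and scalings, the column run, a keratinocyte score, the compared groups alone, and leaving out each library. Tested on simulated counts, the fit recovered all of the larger seeded changes and most, not all, of the smaller ones. The simulation covered only the day comparison in WT paws, with changes seeded in genes of higher counts and no run effect. Recovery in the null day comparison and in the genotype comparisons was not simulated.

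The markers and lists were chosen with earlier results of these data known, and they support nothing independently. Some genes that the naming rule reaches are not reported here. Named genes are all 10 members and, per list, up to 3 called genes with the smallest adjusted p (otherwise up to 2 with the highest mean CPM); Calcr, Csf1, Il34, Ptprc and the endothelial and mast cell genes serve as context, and Csf1, Il34 and Mgl2 in null paws were named after their values were seen. Equal litter numbers did not pair the libraries: the consensus correlation was -0.054 by number and 0.555 by litter within a day. Within a day, only P0 null 1 and P0 WT 1, and P3 WT 2 and P3 WT 3, shared a litter number. All of these are in run A, so litter and run cannot be told apart in the second value.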

Additional observations from a re-analysis of the deposited data

How the results depend on the processing

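Of the 8 members called by day in WT paws, 4 were called with the keratinocyte score as a covariate and between 4 and 8 when a library was left out, with 4 without P0 WT 1 and 5 without P0 WT 2 or P0 WT 3. Adgre1, Lyz2, Ms4a7 and Mrc1 were called in all 28 alternative fits, Csf1r in 25, C1qa in 24, Cd163 in 22, C1qc in 14, Cd68 in 4 and C1qb in 0. The 2 calls in null paws became 4 with DESeq2 and with the column run as a term (4 also without P0 WT 4), 1 with the keratinocyte score, 0 with the compared groups alone, and 0 to 2 when a library was left out (0 without P0 null 2 or P3 null 1, and 1 without P0 null 1, P3 WT 2 or P3 WT 4). Over all genes, the calls by day in WT paws were 3581 in the main fit and 1621 with the keratinocyte score. In null paws they were 166 in the main fit, 1094 with DESeq2, 1070 with the run term and 47 with the keratinocyte score. With the run term and without P0 WT 4 they were 1805. By genotype, 1 member, Cd163 on P0 (0.59, adjusted p = 0.0397 by edgeR), was called in 1 fit. That fit, with the run term and without P0 WT 4, was chosen after seeing the data. It called 1251 genes by genotype on P0, beside 1 in the main fit. The other alternatives called no member by genotype. Cd163 by day in WT paws reversed within run B alone (-0.10, a difference of means with no test). A replicate block on the litter number (limma) gave 7 called members in WT and 2 in null paws, and on litter within day, added after seeing the data, 8 and 2. Over all genes, the block on the litter number called 3233 in WT and 165 in null paws. The counts over all genes for litter within day are not reported here. Values that were never called changed sign in some fits, such as C1qb and C1qc by genotype on P3 in 7 of 28 each. Each member had at least 147 counts in every library.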
